A study of Mus musculus with 10 samples.

Results

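The genes of the inhibin and activin subunits and of the follistatins were followed in mouse liver after gene transfer of VEGF-A. The members were Inha, which encodes the inhibin alpha subunit, Inhba, Inhbb, Inhbc and Inhbe, which encode the activin beta subunits, and the follistatin genes Fst, Fstl1 and Fstl3. They were matched by gene symbol, and each of the 8 had 1 of the 24016 RefSeq transcripts in the table. Ribosomal-depleted RNA was sequenced from the livers of 10 male C57BL/6 mice aged 8 to 12 weeks. All had been injected in the tail vein with an adenoviral vector, and the livers were taken on day 6. In the 5 AdVEGF mice its CMV promoter drove VEGF-A165, and in the 5 AdCMV mice the promoter stood alone, with no transgene behind it. Both groups thus carried the vector, and the CMV promoter is not restricted to 1 cell type. The comparison asks how hepatic expression of these genes differed when the vector carried VEGF-A.

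Values are RPKM, in which the reads on a transcript are divided by its length in kilobases and by the mapped tags of the library. The number of reads behind each value could be recovered from the steps between the values. The total of mapped tags was between 5758960 and 13494000 in the AdCMV libraries (median 7879670) and between 5596570 and 8133950 in the AdVEGF libraries (median 6730410). RPKM is a share of a library, and most transcripts had slightly higher shares in the AdVEGF group. The median log2 fold change of the 13933 transcripts tested was 0.38 on the deposited RPKM and -0.0044 after median-ratio scaling, which divides each library by a factor that centres the bulk of its transcripts. These factors were 0.66 to 0.991 in 4 AdCMV libraries, 1.22 in AdCMV replicate 3 and 0.997 to 1.25 in the AdVEGF libraries. AdCMV replicate 3 thus had the highest factor of its group, inside the range of the AdVEGF libraries. The difference of each member called is also given without this mouse. Of all calls, 89.4% were higher in the AdVEGF group on the deposited RPKM and 71.2% after median-ratio scaling, so that the members' differences are given on both scales.

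Activins are dimers of beta subunits and belong to the transforming growth factor beta superfamily, while inhibins pair the alpha subunit with a beta subunit and oppose activin action. Activins bind serine/threonine kinase receptors and signal through phosphorylated SMAD2 and SMAD3, and follistatin and follistatin-like 3 bind activins in the extracellular space and block them. In the liver, the beta C and beta E subunits are made by hepatocytes, activin A restrains hepatocyte growth, and follistatin counteracts it.

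Fstl1 and Inhbb were the members called higher in the AdVEGF group on both scales. A transcript was called when its Benjamini-Hochberg adjusted p was under 0.05 in limma and its log2 fold change, taken on log2(RPKM + 0.1), was over 1 or under -1. This scale understates the change of low genes. Testing needed a group mean above 0.5 RPKM, which 7 of the 8 members reached in 1 group or both and Inha in neither. Of these, 3 (Fstl1, Inhbb and Fstl3) were called higher and 0 lower, against 13.0% called higher and 1.54% called lower among all transcripts tested. After median-ratio scaling 2 members (Fstl1 and Inhbb) were called higher and 0 lower, against 7.77% and 3.14%. Every AdVEGF mouse was above every AdCMV mouse for 1 of the 7, Fstl1, and below for 0, against 14.3% and 1.29% of all transcripts. Fstl3 passed the filter only through the AdVEGF group, so that its count among those tested is not independent of its difference.

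**Figure D1:**
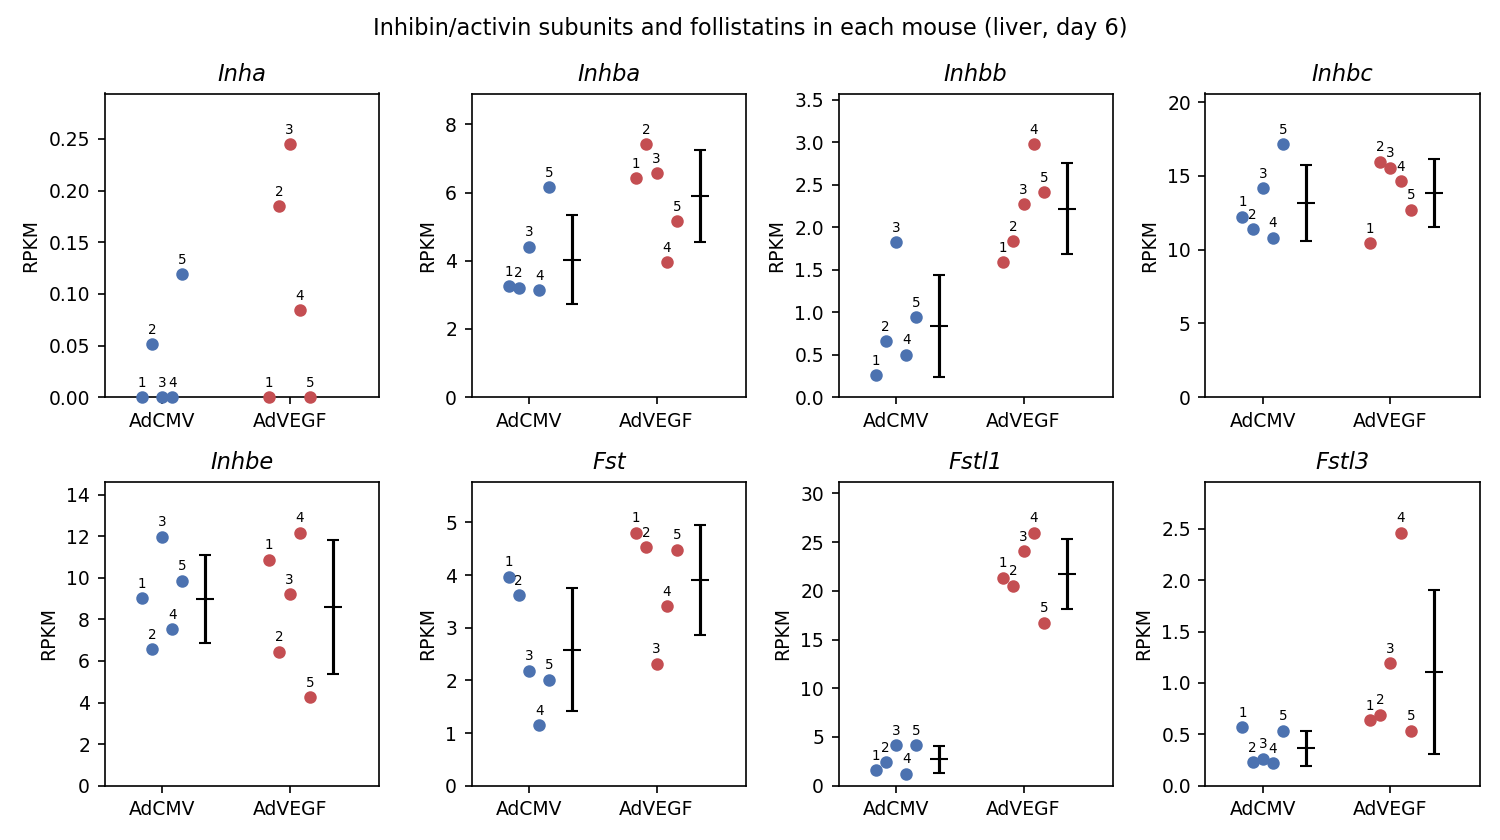
RPKM of the 8 members in each mouse, with 1 point per mouse labelled by its replicate number, AdCMV in blue and AdVEGF in red; black bars give the mean and SD of 5 mice, left out for Inha, which had at most 2 reads in any library. The AdVEGF points lie above all AdCMV points for Fstl1, and the groups overlap in the other panels.

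The order of the levels differed between the groups mainly in the place of Fstl1. Among AdCMV livers the mean RPKM, which allows comparison between genes since it is set per length, was highest for Inhbc, followed by Inhbe, Inhba, Fstl1, Fst, Inhbb, Fstl3 and Inha. Of these neighbours, Inhba and Fstl1, Fstl1 and Fst, and Inhbb and Fstl3 were closer to each other than the larger of their SDs. In AdVEGF livers Fstl1 came first, followed by Inhbc, Inhbe, Inhba, Fst, Inhbb, Fstl3 and Inha. Here Inhbe and Inhba were closer than the larger SD, with Inhbe above Inhba in 3 of 5 mice. Fstl1 was above Inhbc in 5 of 5 AdVEGF mice.

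The members lie on 4 chromosomes, and a pair of them are neighbours. In the coordinates of the table (mm9), Inhbe (chr10:126786458-126788828) and Inhbc (chr10:126793382-126807600) lie on the minus strand with 4553 bases between them. Inhba (chr13:16106308-16119044, plus strand) and Fst (chr13:115242470-115249159, minus strand) share a chromosome, as do Inha (chr1:75503652-75506929, plus strand) and Inhbb (chr1:121312042-121318825, minus strand). Fstl1 lies at chr16:37777141-37836602 on the plus strand. Fstl3 (chr10:79240019-79245375, plus strand) was the only member whose span overlapped another transcript of the table, Prss57.

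Promoter sequences are shown for Inhbb and Fstl1, which were called higher on both scales, and for the hepatocyte genes Inhbc and Inhbe, which were not called. They are the 250 bases before the RefSeq start in GRCm38.p6, a build other than that of the table, and are written 5′ to 3′ on the strand of the gene. RefSeq promoters matched 7 of the 8 members, all but Fst. The windows are chr1:119422249-119422498 (minus strand), chr10:127370549-127370798 (minus strand), chr10:127351849-127352098 (minus strand) and chr16:37776805-37777054 (plus strand). Capitals mark the letters of the motifs found, on either strand.
Inhbb: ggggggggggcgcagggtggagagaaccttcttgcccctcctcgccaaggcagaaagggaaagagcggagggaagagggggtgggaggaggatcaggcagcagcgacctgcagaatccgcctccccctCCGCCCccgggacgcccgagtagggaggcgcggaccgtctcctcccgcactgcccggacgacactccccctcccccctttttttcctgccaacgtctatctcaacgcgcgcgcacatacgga
Inhbc: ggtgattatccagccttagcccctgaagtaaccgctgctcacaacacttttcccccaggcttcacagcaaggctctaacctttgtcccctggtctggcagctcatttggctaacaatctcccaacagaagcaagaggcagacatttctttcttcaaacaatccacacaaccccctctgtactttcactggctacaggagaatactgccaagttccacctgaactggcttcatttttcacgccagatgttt
Inhbe: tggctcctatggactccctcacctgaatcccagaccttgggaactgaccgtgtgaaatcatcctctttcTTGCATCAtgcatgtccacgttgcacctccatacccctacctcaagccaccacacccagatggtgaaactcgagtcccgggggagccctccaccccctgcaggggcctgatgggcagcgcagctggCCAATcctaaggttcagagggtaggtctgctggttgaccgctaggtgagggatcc
Fstl1: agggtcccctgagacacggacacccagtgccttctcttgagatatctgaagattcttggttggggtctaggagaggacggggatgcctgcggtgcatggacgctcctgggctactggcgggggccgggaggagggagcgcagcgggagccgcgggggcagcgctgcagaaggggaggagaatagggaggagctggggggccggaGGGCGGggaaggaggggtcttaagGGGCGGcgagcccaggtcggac

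The printed promoters differed in base composition. GC content was 68.0% for Inhbb with 21 CpG pairs and 68.0% for Fstl1 with 16, whereas Inhbe had 58.8% with 6 and Inhbc 48.8% with 2. The medians over 32851 promoters were 52.4% and 6. Of the members not printed, Fstl3 had 71.2% with 22 CpG pairs, Inha 53.6% with 4 and Inhba 43.2% with 3. A link between base composition and the group difference was not tested. The GC box GGGCGG was found in the windows of Fstl1, Fstl3 and Inhbb, and in 32.7% of all promoters. In Fstl1 it occurred on the strand of the gene at 46 and 22 bases before the start, counted from the first base of the match, and in Inhbb on the opposite strand at 122 bases. The Inhbe window held TGATGNAA, the letters of a composite C/EBP-ATF element, on the opposite strand at 181 bases before the start, and 3.45% of promoters held it. It also held CCAAT at 55 bases, which 33.8% of promoters held and which was found in Inha too. The TATA box letters TATAAA, in 12.4% of promoters, were found for Inhba and, on the opposite strand, for Fstl3. None of the motifs searched was found in the Inhbc window.

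Further motifs were searched on both strands in the same 250-base windows and found in 0 of the 7 members. They were the SMAD palindrome GTCTAGAC (0.167% of promoters), the GGCGCC core of BMP response elements (9.59%), the AP-1 letters TGANTCA (6.75%), the TEAD letters CATTCC (12.6%), the RBPJ letters GTGGGAA (5.42%), the FOX letters TGTTTAC (3.17%) and the E box CACGTG (6.02%). No motif searched contains another. A match describes the letters of the window only, and the absence of a match says nothing beyond these 250 bases.

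The most abundant subunit was Inhbc, the beta C subunit made by hepatocytes. Its RPKM in AdCMV replicates 1 to 5 was 12.2, 11.4, 14.2, 10.8 and 17.2, and in AdVEGF replicates 1 to 5 it was 10.4, 16, 15.6, 14.6 and 12.7. The groups overlapped through almost their whole range, the lowest mouse being AdVEGF replicate 1 and the highest AdCMV replicate 5. The mean was 13.1 ± 2.57 (SD, n = 5) RPKM in AdCMV and 13.9 ± 2.30 (SD, n = 5) in AdVEGF livers. The log2 fold change of Inhbc was 0.08 on the deposited RPKM (95% interval -0.34 to 0.50, limma adjusted p = 0.786) and, with the opposite sign, -0.32 after median-ratio scaling (adjusted p = 0.14). The interval after median-ratio scaling, -0.64 to -0.000085, lay just below 0. Inhbc was called on neither scale.

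Inhbe, the neighbouring beta E gene and likewise a hepatocyte product, was 9.01, 6.57, 12, 7.52 and 9.86 RPKM in AdCMV replicates 1 to 5. In AdVEGF replicates 1 to 5 the RPKM was 10.9, 6.44, 9.22, 12.2 and 4.25. AdVEGF replicate 5 had the lowest value of all and replicate 4 the highest, so that the AdVEGF values spanned those of the controls. The means were 8.99 ± 2.10 (SD, n = 5) and 8.59 ± 3.23 (SD, n = 5) RPKM. Inhbe differed by -0.13 in log2 fold change (95% interval -0.70 to 0.45, limma adjusted p = 0.745), and by -0.53 after median-ratio scaling (95% interval -1 to -0.05, adjusted p = 0.105). Without AdVEGF replicate 5 the log2 fold change was 0.10.

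Since both genes are measured in the same library, the ratio of Inhbe to Inhbc does not depend on the scaling between libraries. The log2 ratio was -0.44, -0.79, -0.24, -0.52 and -0.80 in AdCMV replicates 1 to 5 and 0.06, -1.31, -0.75, -0.27 and -1.58 in AdVEGF replicates 1 to 5. AdVEGF replicates 2 and 5 lay below every AdCMV mouse, whereas AdVEGF replicate 1 lay above every one and was the only mouse with more Inhbe than Inhbc per length. The mean log2 ratio was -0.56 ± 0.24 (SD, n = 5) in AdCMV and -0.77 ± 0.69 (SD, n = 5) in AdVEGF livers. The difference of -0.21 (standard error 0.32) had a two-sided exact permutation p of 0.548 over all 252 splits of the mice, the smallest possible being 0.00794. With a mouse left out the difference ran from -0.42 to -0.0082. The spread of the ratio was wider among AdVEGF mice, and this difference in spread was not tested.

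**Figure D2:**
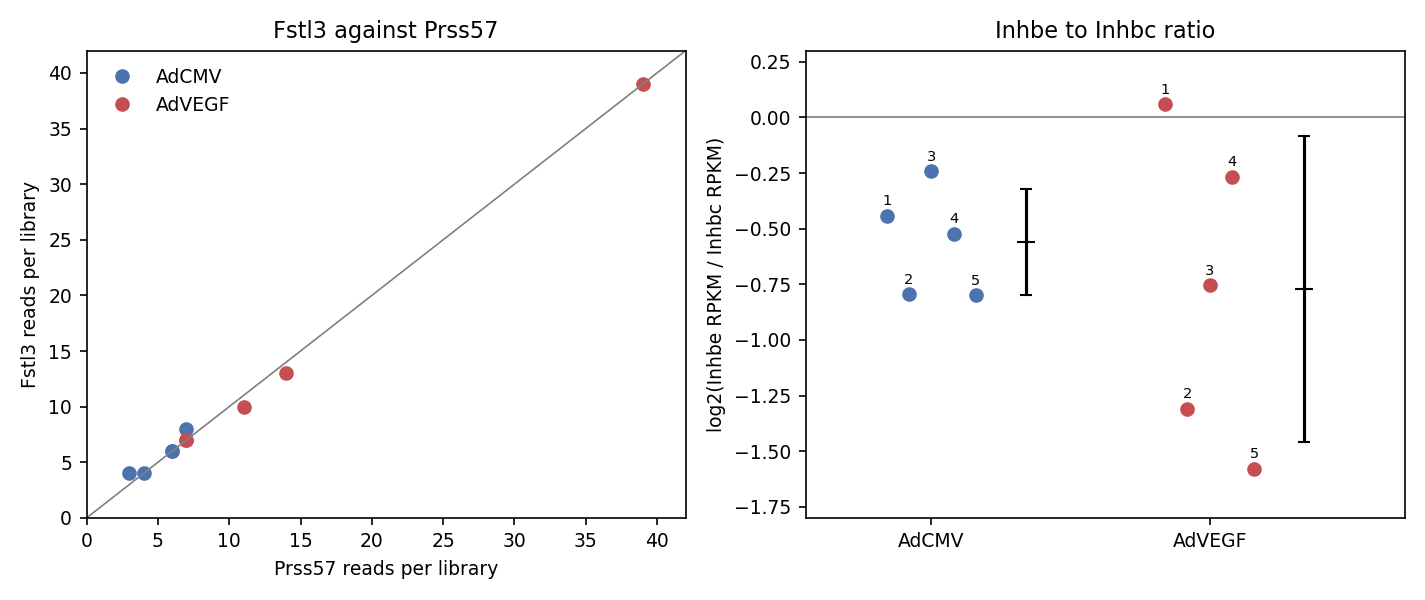
Left, reads on Fstl3 against reads on Prss57 in each of the 10 libraries, with the line of equality in grey; right, log2 ratio of Inhbe to Inhbc RPKM in each mouse, labelled by replicate number, with the mean and SD of 5 mice in black. The left points follow the line up to 39 reads in AdVEGF replicate 4, and the right points of the groups overlap.

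Inhba, which encodes the subunit of activin A, was expressed at a lower level. AdCMV replicates 1 to 5 had 3.26, 3.21, 4.41, 3.13 and 6.15 RPKM and AdVEGF replicates 1 to 5 had 6.42, 7.42, 6.57, 3.95 and 5.17 RPKM. All 5 AdVEGF values were above the AdCMV median and 3 were above every AdCMV mouse, but AdCMV replicate 5 lay among them. Mean RPKM was 4.03 ± 1.30 (SD, n = 5) against 5.91 ± 1.36 (SD, n = 5). The log2 fold change of Inhba was 0.56 (95% interval 0.05 to 1.07, limma adjusted p = 0.102) and 0.16 after median-ratio scaling (adjusted p = 0.582). Inhba was therefore not called.

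Inhbb, the subunit of activin B, was low in control livers and rose in AdVEGF livers. Its RPKM was 0.26, 0.662, 1.82, 0.499 and 0.939 in AdCMV replicates 1 to 5 and 1.59, 1.84, 2.27, 2.98 and 2.41 in AdVEGF replicates 1 to 5. AdCMV replicate 3 was the high control and lay above AdVEGF replicate 1, which was the overlap of the groups; the other 4 controls were below every AdVEGF mouse. These values rest on 8 to 61 reads in the AdCMV and 38 to 103 reads in the AdVEGF libraries, where 3 reads correspond to 0.0523 to 0.126 RPKM. The mean was 0.836 ± 0.603 (SD, n = 5) against 2.22 ± 0.538 (SD, n = 5) RPKM. The log2 fold change of Inhbb was 1.5 (standard error, SE, 0.38, adjusted p = 0.00813 in limma), 1.15 after median-ratio scaling (adjusted p = 0.0181) and 1.82 without AdCMV replicate 3 (adjusted p = 0.000695). The last was the highest with a mouse left out, and the lowest was 1.22, without AdCMV replicate 1. Limma adjusted p ran from 0.000695 to 0.0244 over the mice left out. The 95% intervals, 0.71 to 2.3 and 0.474 to 1.83 after median-ratio scaling, reached below the fold threshold. In bulk tissue, more cells of a type that expresses a gene and more RNA per cell, or fewer cells and less RNA, cannot be told apart. With 1 in place of 0.1 added to the RPKM, the log2 fold change of Inhbb was 0.85, under the fold threshold, with an adjusted p of 0.00615 in limma. In limma's treat, a test against a log2 fold change of 1, the call was lost too.

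Inha, without which no inhibin is formed, was at the limit of detection. It had 0, 1, 0, 0 and 1 reads in AdCMV replicates 1 to 5 and 0, 2, 2, 1 and 0 reads in AdVEGF replicates 1 to 5. A difference was not detectable at this depth, where 3 reads on the transcript correspond to 0.152 to 0.367 RPKM in the different libraries. All values of Inha, at most 0.245 RPKM, were under these limits, which cover counting error only.

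The subunits can also be read as shares of their summed RPKM within a library, a description that needs no scaling. Inhbc and Inhbe together made up 85.8%, 82.1%, 80.7%, 83.5% and 78.9% of the sum in AdCMV replicates 1 to 5 and 72.6%, 70.4%, 73.2%, 79.3% and 69.1% in AdVEGF replicates 1 to 5. In 4 AdVEGF livers the share was below that of every control, and in AdVEGF replicate 4 it was just above the lowest control. Inhbb held 2.94% ± 1.68 (SD, n = 5) of the sum in AdCMV and 7.31% ± 1.93 (SD, n = 5) in AdVEGF livers, and Inhba held 14.8% ± 1.90 (SD, n = 5) and 19.5% ± 4.57 (SD, n = 5). The summed RPKM itself was 27.0 ± 5.87 (SD, n = 5) and 30.7 ± 3.93 (SD, n = 5). These shares were not tested.

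**Figure D3:**
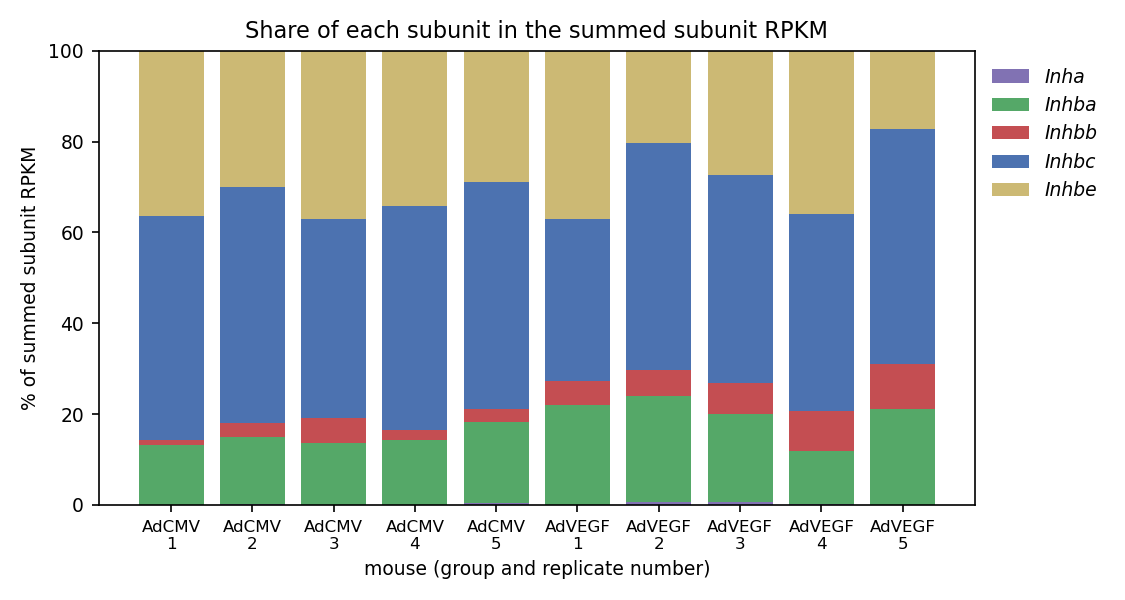
Percent of the summed RPKM of Inha, Inhba, Inhbb, Inhbc and Inhbe held by each subunit, with 1 bar per mouse. Inhbc and Inhbe take 78.9% to 85.8% in AdCMV and 69.1% to 79.3% in AdVEGF mice, and Inhba and Inhbb nearly all of the rest.

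Among the follistatins, Fst encodes follistatin itself, the secreted antagonist that binds activins with high affinity. Its RPKM was 3.97, 3.61, 2.18, 1.15 and 2.01 in AdCMV replicates 1 to 5, and 4.8, 4.53, 2.32, 3.40 and 4.48 in AdVEGF replicates 1 to 5. AdVEGF replicates 1, 2 and 5 were above all controls, and AdVEGF replicates 3 and 4 lay among them. Mean RPKM was 2.58 ± 1.17 (SD, n = 5) and 3.91 ± 1.04 (SD, n = 5). The log2 fold change of Fst was 0.65 (95% interval -0.0029 to 1.31, limma adjusted p = 0.131) and 0.27 after median-ratio scaling (adjusted p = 0.614), and Fst was not called. With a mouse left out it ran from 0.41 (without AdCMV replicate 4) to 0.84 (without AdCMV replicate 1).

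Fstl1 encodes a secreted glycoprotein with a follistatin domain, known as a product of mesenchymal cells rather than as an activin antagonist. In AdCMV replicates 1 to 5 it had 1.61, 2.41, 4.16, 1.21 and 4.15 RPKM, and in AdVEGF replicates 1 to 5 it had 21.3, 20.5, 24.1, 26.0 and 16.7 RPKM. The lowest AdVEGF mouse, replicate 5, was far above the highest controls, replicates 3 and 5, and the groups did not overlap. The values rest on 41 to 118 reads in AdCMV and 405 to 760 reads in AdVEGF libraries. Mean RPKM was 2.71 ± 1.39 (SD, n = 5) in AdCMV and 21.7 ± 3.55 (SD, n = 5) in AdVEGF livers, a ratio of 8.02. The log2 fold change of Fstl1 was 3.10 (SE 0.30, adjusted p = 1.13e-06 in limma), 2.71 after median-ratio scaling (adjusted p = 1.61e-06) and 3.29 without AdCMV replicate 3 (adjusted p = 1.31e-06). After median-ratio scaling the values of the groups were also apart, with a highest control of 4.19 and a lowest AdVEGF mouse of 16.8.

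Relative to Fst in the same library, Fstl1 was lower or up to about double in controls and several times higher in AdVEGF livers. The ratio of Fstl1 to Fst RPKM was 0.406, 0.668, 1.91, 1.05 and 2.07 in AdCMV replicates 1 to 5 and 4.44, 4.53, 10.4, 7.63 and 3.74 in AdVEGF replicates 1 to 5. Every AdVEGF ratio was above every AdCMV ratio, which follows in part from the difference in Fstl1 already given, and the ratio was not tested.

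Fstl3, the other activin antagonist of the family, had few reads. They numbered 8, 6, 4, 4 and 6 in AdCMV replicates 1 to 5 and 7, 10, 13, 39 and 7 in AdVEGF replicates 1 to 5, which gave 0.568, 0.228, 0.261, 0.218 and 0.535 RPKM and 0.64, 0.692, 1.19, 2.46 and 0.534 RPKM. AdVEGF replicate 4 was the highest by far, and AdVEGF replicate 5 lay below the highest controls. The log2 fold change of Fstl3 was 1.25 (SE 0.42, adjusted p = 0.0396 in limma), but 0.92 after median-ratio scaling (adjusted p = 0.118), where the call was lost. In limma without AdVEGF replicate 4 the log2 fold change was 0.93 (adjusted p = 0.118), and the call was also lost without AdCMV replicate 2 (1.15, adjusted p = 0.0891), AdCMV replicate 4 (1.14, 0.0922), AdVEGF replicate 2 (1.35, 0.0517) or AdVEGF replicate 3 (1.18, 0.0962). Without AdCMV replicate 3 it was 1.18 (limma adjusted p = 0.0464).

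The reads on Fstl3 cannot be told apart from those on Prss57, which encodes a serine protease of granulocytes. In the table's coordinates (mm9), Prss57 (chr10:79244219-79251730) lies on the minus strand and shares 1157 bases of span with Fstl3, at the 3′ ends of both. Prss57 had 7, 6, 3, 4 and 6 reads in AdCMV replicates 1 to 5 and 7, 11, 14, 39 and 7 reads in AdVEGF replicates 1 to 5. In each of the 10 mice the numbers for these genes differed by at most 1 read. Whether strand was used in the counting is not given in the sources used here, and the value of Fstl3 is uncertain.

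**Figure D4:**
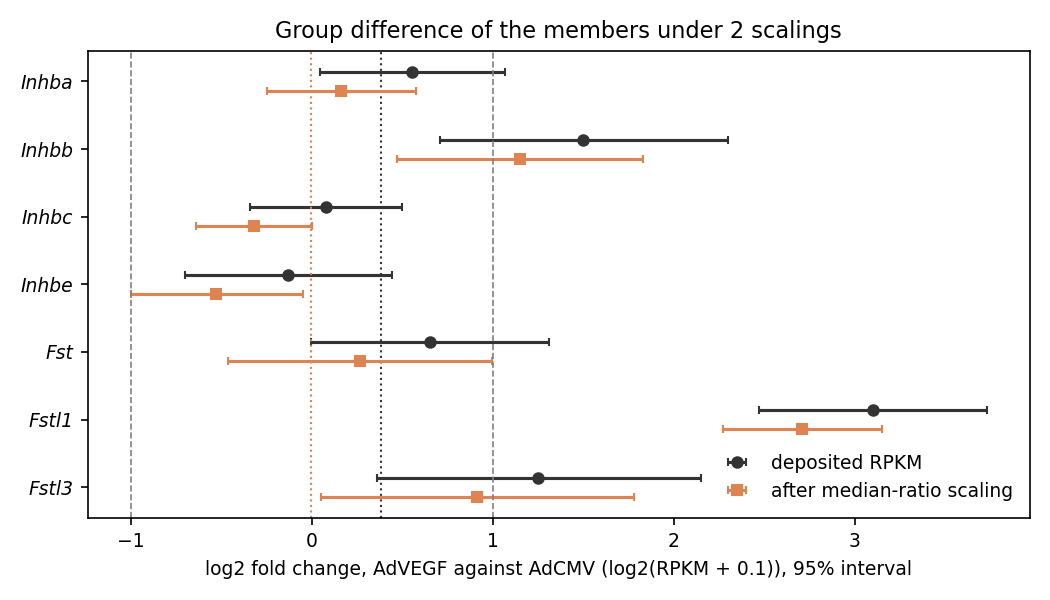
Log2 fold change of the 7 members tested, AdVEGF against AdCMV, with 95% intervals from limma, on the deposited RPKM (black circles) and after median-ratio scaling (orange squares). Dashed lines mark the fold threshold of 1 and -1, and dotted lines the median of all transcripts on each scale, 0.38 and -0.0044. The estimates of Fstl1 and Inhbb lie above the threshold on both scales, and the intervals of Inhbb reach below it. Inhbc changes sign between the scales.

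The 3 transcripts closest in pattern to each member were found by the root mean square difference of their centred log2 profiles over the 10 libraries. For Fstl1 they were Nrarp (0.222), Sparc (0.227) and Col5a2 (0.244), with log2 fold changes of 3.16, 3.34 and 3.23. Closest to Inhbb were Cfap69 (0.261), 9330133O14Rik (0.272) and Slc16a5 (0.285), and closest to Fstl3 was Prss57 (0.0953), before Ace (0.254) and Cxcr5 (0.374). Inhba was closest to Deptor (0.145), Cd300ld (0.153) and Trpm2 (0.158), and Fst to Ccng2 (0.264), Bcdin3d (0.308) and Tmem216 (0.331). The hepatocyte subunits had different neighbours, which were Shb (0.118), Gpc4 (0.124) and Coro2a (0.14) for Inhbc, and Cd8b1 (0.205), S1pr5 (0.208) and Ptges2 (0.214) for Inhbe. With 13933 candidates some profile is always close, so that the likeness is a description.

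Among the receptors, a co-receptor and a decoy were called higher. Beside this and the later lists, 13.0% of all transcripts tested were called higher and 1.54% lower. After median-ratio scaling these shares were 7.77% and 3.14%. Of the 8 genes listed as activin receptors and co-receptors, 6 were tested, 2 were called higher and 0 lower on both scales, with a median log2 fold change of 0.67 beside 0.38 for all transcripts (0.28 beside -0.0044 after median-ratio scaling). The genes called were Tgfbr3, the betaglycan co-receptor that inhibin needs for high-affinity binding, and Bambi, a decoy receptor without a kinase domain. Tgfbr3 rose from 1.22 ± 0.628 to 3.56 ± 0.931 (SD, n = 5) RPKM, which is 1.56 in log2 (SE 0.30, adjusted p = 0.00129 in limma). Bambi rose from 0.521 ± 0.214 to 1.90 ± 0.277 (SD, n = 5) RPKM, or by 1.74 in log2 (SE 0.30, adjusted p = 0.000378 in limma) and by 0.94, under the fold threshold, with 1 added to the RPKM. The groups did not overlap for either, but with treat neither was called.

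The type II receptors that bind activins were not called. Acvr2a, the most abundant of the list, had 4.86 ± 1.49 RPKM in AdCMV and 6.32 ± 1.09 RPKM in AdVEGF livers (SD, n = 5), and Acvr2b had 1.25 ± 0.359 and 1.62 ± 0.374 RPKM (SD, n = 5). Acvr1b, the type I receptor of activins A and B, had 1.2 ± 0.717 and 1.14 ± 0.482 RPKM (SD, n = 5). The log2 fold changes were 0.40, 0.36 and 0.08 on the deposited RPKM and 0.01, -0.01 and -0.27 after median-ratio scaling, where the sign of Acvr2b and Acvr1b turned. For Acvr1b the mean RPKM was lower in AdVEGF livers although its mean log2 difference on the deposited RPKM was above 0, and its direction was not settled. Acvr1, which BMP and activin ligands share, had 2.33 ± 0.980 and 4.33 ± 0.747 RPKM (SD, n = 5) and a log2 fold change of 0.93, under the fold threshold, with a limma adjusted p of 0.0164. Acvr1c, the receptor reported to bind the beta C and beta E dimers, and Tdgf1 had at most 3 reads in any library and were not tested.

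**Figure D5:**
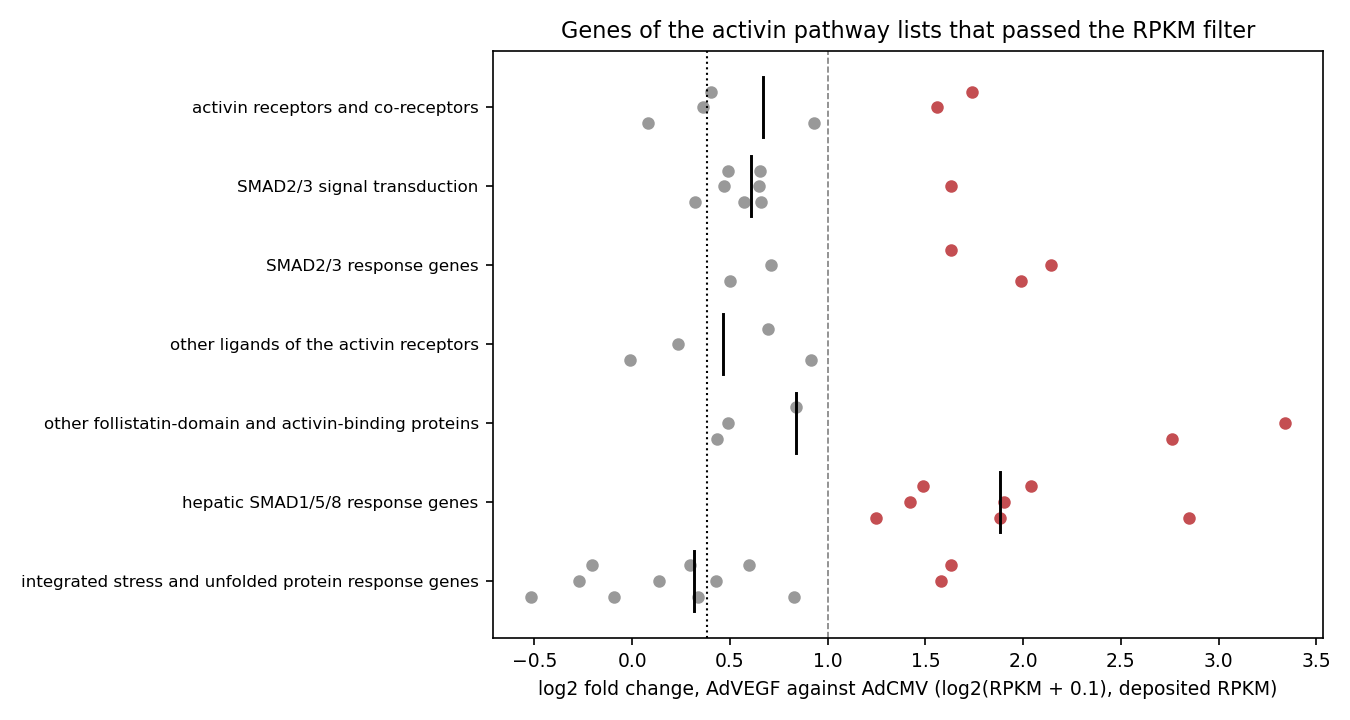
Log2 fold change on the deposited RPKM of each tested gene in 7 lists of the activin and neighbouring pathways, red where called higher and grey where not called. Short black lines mark the list medians, left out for the SMAD2/3 response genes, of which only those reported are drawn, the dotted line the median of all transcripts (0.38) and the dashed line the fold threshold of 1; Smad7 stands in both SMAD2/3 lists.

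Downstream of the receptors, Smad2, Smad3 and Smad4 were not called, while some response genes of the pathway were. Among 9 listed genes of SMAD2/3 signal transduction, 8 were tested and 1, the inhibitory Smad7, was called higher and 0 lower on both scales (median log2 fold change 0.61, and 0.23 after median-ratio scaling). The share called higher among all transcripts tested was 13.0%, and 7.77% after median-ratio scaling. On the deposited RPKM the log2 fold changes of Smad2, Smad3, Smad4 and the ubiquitin ligase gene Smurf2 were 0.49, 0.66, 0.65 and 0.65, and after median-ratio scaling 0.10, 0.27, 0.25 and 0.25. Foxh1 had no reads in any library. Of the SMAD2/3 response list, which is not reported in full, 5 genes are given, and 3 of these were called higher on both scales and 1, Pmepa1, with treat. These were Smad7, from 4.09 ± 1.01 to 12.7 ± 1.35 (SD, n = 5) RPKM, Pmepa1, which limits SMAD activation, from 2.39 ± 0.804 to 9.66 ± 2.28 (SD, n = 5), and Ctgf, a matricellular protein, from 1.09 ± 0.369 to 6.07 ± 3.89 (SD, n = 5). Their log2 fold changes were 1.63, 1.99 and 2.14 on the deposited RPKM and 1.24, 1.60 and 1.77 after median-ratio scaling. Skil (0.71) and Tgfbi (0.50) were not called. Response genes of this kind respond to other ligands of the pathway too, so that they are not specific to activins. Nor are they all specific to SMAD2/3, since Ctgf is also known as a target of Hippo signaling.

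Other ligands of the activin receptors were not called with all 10 mice. Of 7 listed, 4 were tested and 0 were called higher or lower in limma on either scale, with medians of 0.47 and, on the median-ratio scale, 0.10. The most abundant was Gdf1, with 8.34 ± 3.79 RPKM in AdCMV and 14.9 ± 3.70 RPKM in AdVEGF livers (SD, n = 5), a log2 fold change of 0.91 and a limma adjusted p of 0.0304. After median-ratio scaling Gdf1 had 0.51 (limma adjusted p = 0.196). In limma Gdf1 was called higher without AdCMV replicate 3 (1.13, adjusted p = 0.00488), AdCMV replicate 2 (1.01, 0.0311) or AdVEGF replicate 5 (1.05, 0.0197). Without AdCMV replicate 1, 4 or 5 or AdVEGF replicate 2, 3 or 4 its limma adjusted p was 0.0625 to 0.0786. The lowest log2 fold change was 0.68, without AdCMV replicate 5. Mstn, Gdf11 and Lefty2 were not tested.

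Proteins that share the follistatin domain or bind activins were divided. Of 9 listed, 5 were tested and 2 were called higher and 0 lower on both scales (medians 0.84 and 0.45). Sparc, a matricellular protein with a follistatin-like domain, had 22.8 ± 8.74 RPKM in AdCMV and 220 ± 35.1 RPKM in AdVEGF livers (SD, n = 5), which is 3.34 in log2 (SE 0.25, adjusted p = 1.12e-07 in limma). Its relative Sparcl1 rose from 0.504 ± 0.183 to 4.20 ± 1.77 (SD, n = 5) RPKM, or by 2.76 in log2. The changes on the median-ratio scale were 2.94 and 2.40, and the groups did not overlap for either gene. Agrn, with 0.84, was under the fold threshold with all 10 mice and passed it without AdCMV replicate 5 (1.01). Fstl5 had no reads in any library, and Fstl4, Wfikkn2 and Igsf1 were not tested.

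Genes that respond to SMAD1/5/8, the branch used by bone morphogenetic proteins, were all called on the deposited RPKM. Of 7 listed and tested, 7 were called higher and 0 lower, and 6 and 0 after median-ratio scaling (medians 1.88 and 1.47). With treat 3 were called, Atoh8, Id2, Id3 and Smad9 being lost, and Smad9 had 0.99 and no call with 1 added to the RPKM. Hamp, which encodes the iron regulator hepcidin, had 761 ± 186 RPKM in AdCMV and 2810 ± 757 RPKM in AdVEGF livers (SD, n = 5), a log2 fold change of 1.88. Id1 (2.85), Smad6 (2.04), Atoh8 (1.90), Id3 (1.49), Smad9 (1.42) and Id2 (1.25) rose as well, the last with 0.84 and no call after median-ratio scaling. Only Smad9 had overlapping groups.

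Stress response genes were included since Inhbe is known to be induced by endoplasmic reticulum stress. Of 12 listed and tested, 2 (Asns and Fgf21) were called higher on the deposited RPKM and 0 lower, and 0 and 0 after median-ratio scaling, with medians of 0.32 and -0.08. On the deposited RPKM 13.0% of all transcripts tested were called higher. Asns rose by 1.63 in log2 (limma adjusted p = 0.00826) and had 1.26 after median-ratio scaling (adjusted p = 0.052). Fgf21, a secreted metabolic hormone, had 1.58 (limma adjusted p = 0.0379) and 1.21 (adjusted p = 0.126), and leaving out any of 7 single mice ended its call, with log2 fold changes of 1.25 to 2.11 over the 10 mice left out in turn. Hspa5, the endoplasmic reticulum chaperone and most abundant gene of the list, had 555 ± 123 and 467 ± 144 RPKM (SD, n = 5), and Atf4 (0.43), Ddit3 (0.60) and Trib3 (0.83) were not called. Dnajb9 (-0.52), Sesn2 (-0.21) and Chac1 (-0.09) had log2 fold changes below 0 and were not called either. After median-ratio scaling Dnajb9 had -0.92 (limma adjusted p = 0.023) and Sesn2 -0.59 (0.0325), both short of the fold threshold.

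Markers of endothelial and stellate cells were higher in the AdVEGF livers, beside the rise of Fstl1 and Inhbb. All 10 pan-endothelial markers were called higher on both scales (medians 2.69 and 2.29) and 8 with treat, with Egfl7 the most abundant. Their summed RPKM was 51.3, 58.0, 77.9, 39.8 and 72.8 in AdCMV replicates 1 to 5 and 362, 340, 393, 425 and 330 in AdVEGF replicates 1 to 5. The 7 sinusoidal endothelial markers were all called higher, 6 of them after median-ratio scaling and 3 with treat (medians 1.75 and 1.36), with Clec4g the most abundant and sums of 51.9 to 90.8 and 185 to 271 RPKM. In both lists the groups were far apart, as they were for Fstl1.

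Of the 11 hepatic stellate and fibroblast markers, 10 were called higher on both scales (medians 1.94 and 1.54) and 6 with treat. Dcn was the most abundant and was the gene not called, and Col3a1 came next. The summed RPKM was 80.9, 127, 119, 80.9 and 136 in AdCMV replicates 1 to 5 and 440, 416, 350, 456 and 232 in AdVEGF replicates 1 to 5. AdVEGF replicate 5 was the lowest of its group here and in the endothelial sums, as it was for Fstl1, and AdVEGF replicate 4 the highest in the stellate and the pan-endothelial sums and in Fstl1. For Inhbb replicate 4 was the highest too, but replicate 1 was the lowest and replicate 5 came next to the highest. No marker of these lists was at 0 throughout. The part of the endothelial and stellate cell markers in the rise of Fstl1 and Inhbb was not tested.

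Hepatocyte markers, given beside Inhbc and Inhbe, were called higher for 2 of 9 on the deposited RPKM and for 0 after median-ratio scaling (medians 0.42 and 0.02), and 0 were lower. Alb was the most abundant, and the sums were 22500 to 27900 RPKM in AdCMV and 35700 to 45600 RPKM in AdVEGF livers. Without Alb they were 15800 to 20100 and 19200 to 27900 RPKM, and the groups overlapped. Of the Kupffer cell and macrophage markers, led by Cd5l, 3 of 10 passed as higher, 2 on the median-ratio scale and 5 without AdCMV replicate 5, with sums of 145 to 315 and 306 to 472 RPKM. For neutrophils, given beside Fstl3 and Prss57, 0 of 4 markers were called in limma on either scale, and the sums, led by S100a8, were 27.1 to 112 and 28.2 to 215 RPKM. The highest neutrophil sum was that of AdVEGF replicate 4, the mouse with 39 reads on Fstl3 and on Prss57, whereas AdCMV replicate 2, with the next highest sum (112), had 6 reads on each. The part of neutrophils in these values was not tested.

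The remaining marker lists are given for completeness of the cell types. Of 10 T and NK cell markers 7 were tested. Of these, 0 were called higher and 5 lower, and 6 lower after median-ratio scaling. The lower calls numbered 2 with 1 added to the RPKM, 0 with treat and 3 to 5 with a mouse left out. Nkg7 was the most abundant and Gzma next, and the sums were 10.3 to 37.2 and 7.4 to 15.1 RPKM. Among the markers not tested, Cd4 had a mean RPKM of 0.402 in AdCMV and 0.264 in AdVEGF livers. Klrb1c (0.196 and 0.32) and Ncr1 (0.113 and 0.377) went the other way. B cell markers were called higher for 3 of 4, and for 1 after median-ratio scaling, at sums of 0.669 to 1.71 and 2.88 to 7.82 RPKM, led by Cd79b. Of the cholangiocyte markers 1 of 4 (2 without AdVEGF replicate 1, with Sox9) was called higher on both scales. This was Spp1, which is not made by bile ducts alone and rose from 35.2 ± 11.3 to 531 ± 174 (SD, n = 5) RPKM. Sox9 had 5.34 ± 0.775 and 10.1 ± 2.63 RPKM (SD, n = 5) with no overlap of the groups. Its log2 fold change was 0.88, under the fold threshold (limma adjusted p = 0.00653), and 0.49 after median-ratio scaling (adjusted p = 0.108). The 4 mesothelial markers had at most 1.26 RPKM in sum and were not tested.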

How the data were processed

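The table deposited by the authors holds RPKM values for 24016 RefSeq transcripts in 10 libraries, made, per the submitters' processing notes, with TopHat and HOMER on mm9. It also holds the authors' own columns for the comparison of the groups, a log fold change and a false discovery rate, which were not used. RPKM was taken as log2(RPKM + 0.1) and fitted in limma 3.58.1 (R 4.3.3) with a trended variance. The fit covered the 13933 transcripts whose mean passed 0.5 RPKM in either group, and calls needed an adjusted p (Benjamini-Hochberg) below 0.05 with a log2 fold change beyond 1 in size. The members, lists and markers were chosen with earlier results of these data known. The rule for naming allowed the 8 members, pathway genes that passed the filter, the 2 most abundant markers of each list and the 3 transcripts closest to each member. A gene of the SMAD2/3 response list is not reported here, so no median of that list is given. Which of the pathway genes are named was settled after their values were seen, as were the listed genes that did not pass the filter.

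The alternatives tried were scaling by median ratios or upper quartiles, 1 or 0.01 added to the RPKM, no filter, a filter at 1 RPKM, a single transcript per symbol, limma's treat, limma's voom on reads recovered from the RPKM, plain or with median-ratio scaling, a replicate block and leaving out each mouse. The likeness after median-ratio scaling was chosen after seeing the data. Replicate numbers are not stated to pair mice. AdCMV and AdVEGF profiles of the same number, each taken against its group mean, were correlated over 13933 transcripts. The correlation was 0.0357, 0.109, 0.00763, 0.096 and 0.291 for numbers 1 to 5. The closest match had the same number for numbers 1, 4 and 5, and another number for 2 and 3. Since the numbers are not stated to pair mice, the block was not used for the reported values. A self-test of the scripts was run. Between libraries of a group the variance was 12.4 or more times that of counting noise, so none was a repeat run of the same library. Counting noise leaves out the preparation of a library, so separate preparations of 1 sample are not addressed. The 5 transcripts without a symbol (at most 0.00534% of reads) were left out of the tests. Promoters came from RefSeq (GRCm38.p6), and the motifs were chosen after the sequences had been seen. Python 3.11.15 with numpy 2.4.6, pandas 2.3.3 and matplotlib 3.10.9 was used for the rest.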

Additional observations from a re-analysis of the deposited data

Results flagged for a closer look

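In 10 of 192 groups of 5 mice examined, 1 mouse lay far from the other 4, with a gap to its nearest neighbour above 0.71 of the range of the group. Chance alone sets apart about 1 in 20 groups. None of the 8 members was among them. AdCMV replicate 3 was the high mouse in 5 groups, with RPKM of 3.79 for Pmepa1, 2.2 for Smad9, 34.1 for Ddit3, 3.37 for Fgf21 and 0.867 for Cfap69. AdVEGF replicate 4 was high for S100a8 (107 RPKM) and for the summed neutrophil markers (215 RPKM), of which S100a8 is 1. AdCMV replicate 2 was high for S100a8 (51.9 RPKM) and AdVEGF replicate 1 for Tgfbi (18.5 RPKM), and AdCMV replicate 4 was low for Eng (8.56 RPKM). The cause was not tested.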

How the results depend on the processing

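Of 147 values of the 7 members tested under alternatives, 131 kept their direction and their side of the threshold, 12 (Inhbb and Fstl3) kept their direction and lost the call and 4 (Inhbc and Inhbe) changed sign. A single transcript per symbol gave the same fit as the reported one (13933 tested, 1808 higher, 214 lower). Its values, counted here and among the listed genes below, therefore could not move and say nothing on stability. Fstl1 was called under all, with log2 fold changes of 2.69 to 3.26, and 2.86 to 3.29 with a mouse left out. Of 945 values of 45 listed genes 885 kept both, 36 lost and 10 gained the call (Acvr1, Gdf1, Agrn, Dcn and Sox9) and 14 changed sign. With treat the genes called higher fell from 2 to 0 (receptors), 1 to 0 (SMAD2/3 transduction), 7 to 3 (SMAD1/5/8), 2 to 0 (stress), 2 to 0 (hepatocyte), 10 to 8 (pan-endothelial), 7 to 3 (sinusoidal), 10 to 6 (stellate) and 3 to 1 (B cell), and Smad7 and Ctgf lost their calls. T and NK cell markers called lower fell from 5 to 2 with 1 added, 0 with treat and 3 without any of 4 single mice. The transcripts called higher numbered 1082 with median-ratio scaling, 1125 with upper quartile scaling, 954 with 1 added, 503 with treat and 1135 with voom and median-ratio scaling. Those called lower numbered 438, 393, 36 (treat) and 477 (voom and median-ratio scaling). Of the members 1, Fstl1, was called higher with 1 added and 1 with treat. With a mouse left out, 1425 to 2357 transcripts were called higher, 178 to 225 lower, and 2 to 3 members higher and 0 lower. Signs turned with median-ratio scaling, upper quartile scaling and voom with median-ratio scaling for Inhbc (-0.32, -0.276, -0.306), Acvr1b (-0.267, -0.229, -0.231, and -0.000735 with 1 added) and S100a8 (-0.162, -0.118, -0.136), and with the first and last for Acvr2b (-0.0117, -0.0563). With a mouse left out the log2 fold change ran from -0.276 to 0.0979 for Inhbe, -0.248 to 0.292 for Acvr1b and -0.364 to 0.641 for S100a8. The Inhbe to Inhbc difference was -0.418 to -0.00816. With the replicate block 1933 transcripts were called higher and 256 lower, with the same 3 members. The pairing check was mixed, and the numbers are not stated to pair mice. Of the 3 transcripts closest to Fstl1, 1 (Sparc) was kept after median-ratio scaling. The cause of these shifts was not tested. With 5 mice a group at 1 time point, low members rest on few reads, and a difference in Inha could not be seen.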
